A study of Mus musculus with 6 samples.

Results

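The group described here holds 10 genes: the ligands Fgf1, Fgf2, Bdnf, Gdnf and Igf1, the receptors Fgfr1, Ntrk2, Ngfr and Gfra1, and the binding protein Igfbp3. They were taken by name as FGF, neurotrophin, GDNF and IGF signals known to protect photoreceptors, and every probe set whose only gene symbol in the platform annotation was one of them was included. All 10 genes were found, with 30 of 45037 probe sets, and the annotation names 18193 genes in all. Retinal RNA from prCAD knockout mice, labelled as mutant, was set against retinal RNA from wild type 129 mice, both about 4 weeks old. prCAD is photoreceptor cadherin, the product of Cdhr1, found at the base of the outer segments where new discs form. There were 3 single-colour Affymetrix arrays per genotype, and each array held the retinas of 3 pooled mice. The spread between arrays is therefore one between pools. No strain is named for the mutant mice in the labels, so loss of prCAD and any difference in strain cannot be told apart.

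Growth factors of these families act on photoreceptors directly or through Müller glia, the radial glia of the retina. In rodents, FGF2 delivered to the eye slows the loss of photoreceptors, and its own transcript is known to rise after retinal injury. FGFs signal through tyrosine kinase receptors such as FGFR1. Brain-derived neurotrophic factor, encoded by Bdnf, acts on the TrkB kinase, encoded by Ntrk2, while the p75 receptor, encoded by Ngfr, binds all neurotrophins and has no kinase of its own. GDNF binds the membrane-anchored co-receptor GFRA1, which acts together with the kinase RET. IGF1 acts on its own receptor kinase, and IGFBP3 is one of the secreted proteins that carry it.

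All values are log2 expression values. The 6 arrays had medians between 4.74 and 4.79. Cdhr1 averaged 4.16 ± 0.20 in mutant and 11.22 ± 0.21 in wild type retina (SD, n = 3 each), and each array matched its labelled genotype in this transcript. Whether its probes fall within the deletion is not stated in the labels. Rod photoreceptor markers identified the tissue, with 13 measured, none of them below 4.76, the median of all values, and mean levels of 10.83 to 11.02 in mutant and 10.99 to 11.21 in wild type arrays. The third array of each genotype stood apart from the others. In 21928 of all 45037 probe sets (48.7%) it was the lowest or the highest array in both genotypes at once, and the same held for 14 of the 30 described here. This count was not made for replicates 1 and 2. The mean correlation with the other arrays was 0.978 for wild type replicate 3 and 0.981 for mutant replicate 3, but mutant replicate 1 was close to these at 0.982.

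None of the 30 probe sets passed the test over all 45037 at an adjusted p of 0.05 (limma on genotype), a threshold that 0.0111% of all probe sets met. With the replicate number as a block it was again 0 of 30, against 0.0333% of all. At an unadjusted p under 0.05 there was 1 of 30, a probe set of Ngfr, against 3.02% of all probe sets. With the block there were 4 of 30, against 7.60% of all: the same Ngfr probe set, another of Ngfr and 2 of Fgf1. The differences ran from -0.35 to 0.54 on the log2 scale, and 15 probe sets lay higher and 15 lower in mutant retina. Their median difference was 0.01, as was that of all probe sets. In these bulk samples fewer cells of a type and less RNA per cell cannot be told apart.

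**Figure D1:**
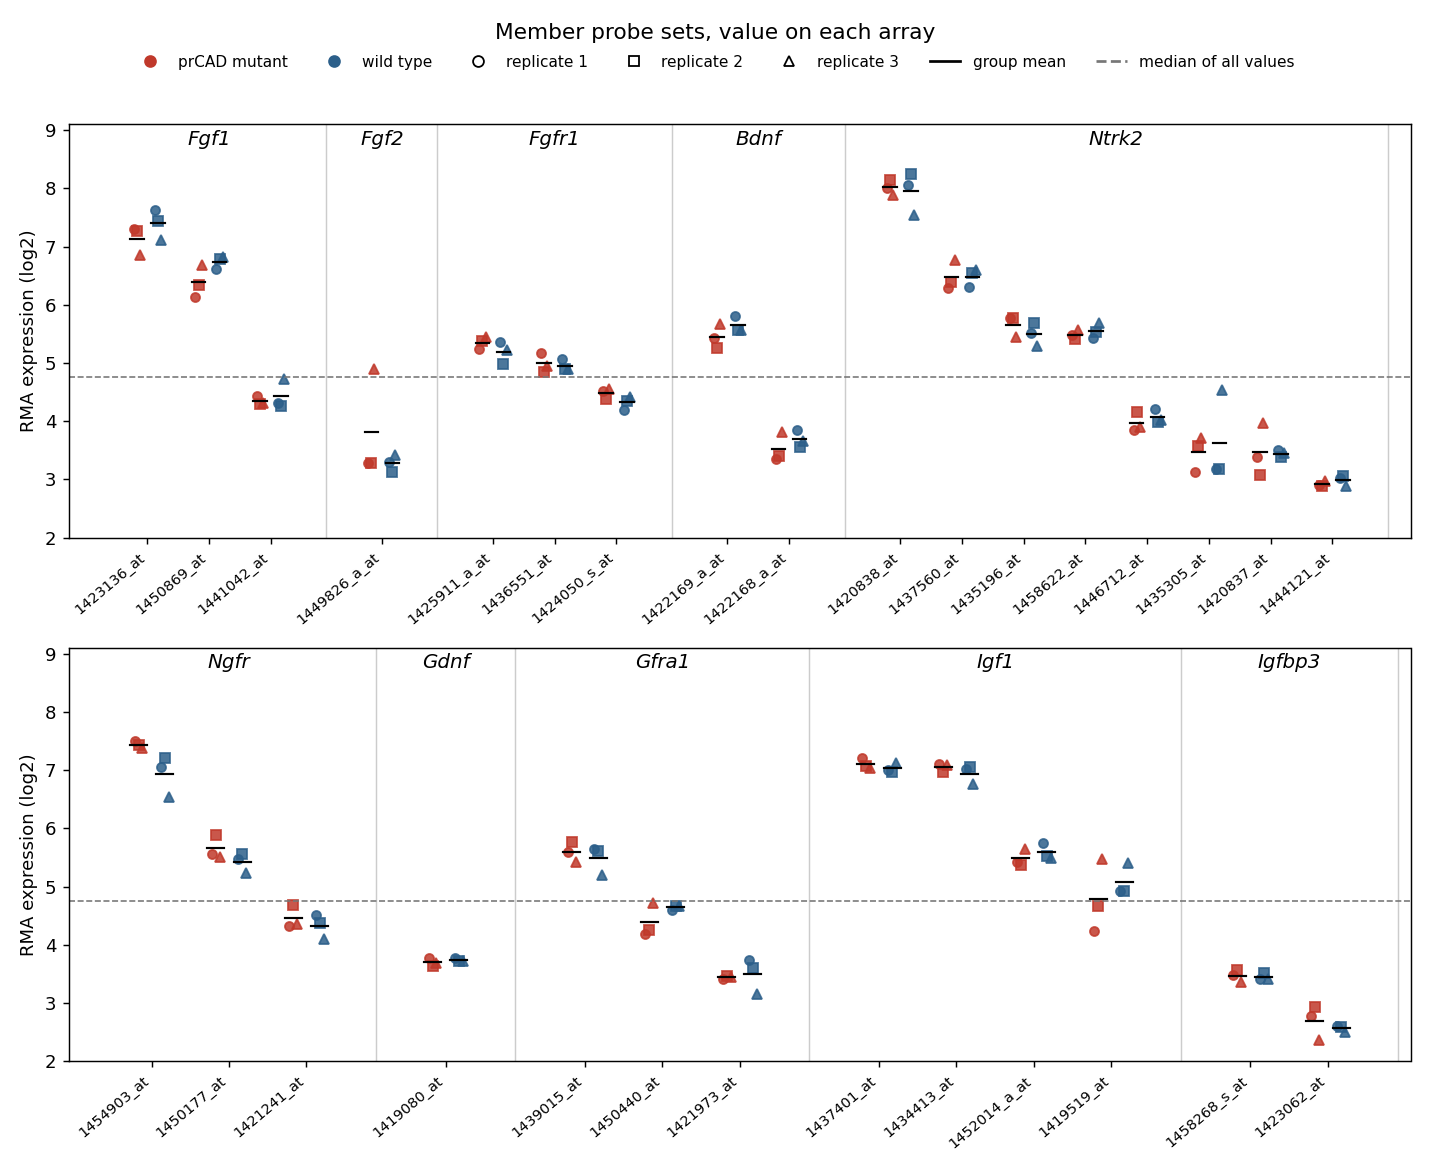
Log2 expression (vertical axis) of each of the 30 probe sets on each array, with mutant arrays in red left of wild type arrays in blue, marker shapes for the replicate number, black bars for group means and a dashed line at the median of all values. The groups overlap at every probe set but Ngfr 1454903_at, and Fgf2 has 1 high array, mutant replicate 3.

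Ngfr was the member with the smallest p. Its probe set 1454903_at read 7.50, 7.42 and 7.38 on the mutant arrays, against 7.05, 7.20 and 6.53 on the wild type arrays. Every mutant array was above every wild type array, a separation upward that 4.73% of all probe sets showed and 1 of the 30 here. The difference was 0.51 (SE 0.17), a 1.42-fold higher level, with a 95% interval of 0.09 to 0.92, an unadjusted p of 0.0229 and an adjusted p of 1.00 (limma). The lowest value came from wild type replicate 3, and without that array the difference was 0.31.

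The other probe sets of Ngfr lay on the same side with smaller differences. At 1450177_at the mutant arrays read 5.57, 5.89 and 5.51, against 5.48, 5.56 and 5.23 in wild type, a difference of 0.23 (SE 0.14). The groups overlapped there, but each mutant array was above the wild type array of its own number, by 0.09, 0.33 and 0.28. At 1421241_at, which lay below the median of all values, the mutant arrays read 4.33, 4.68 and 4.35, against 4.51, 4.38 and 4.09 in wild type. The first pair ran the other way there, and the difference was 0.12 (SE 0.15). Single arrays decided the size of both: the difference was 0.12 at 1450177_at without mutant replicate 2, and at 1421241_at 0.0087 without that array and 0.0056 without wild type replicate 3. Taken by pairs, 4 of the 30 probe sets were higher in mutant retina in all 3 (17.0% of all probe sets), and 2 of these were of Ngfr, the others being 1 of Fgfr1 and 1 of Ntrk2.

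Most markers of several other cell types lay higher in mutant retina as well, as did 10621 of all 18193 genes at their brightest probe set. Of 16 Müller glia markers 12 lay higher, with mean levels of 8.71 to 8.95 in mutant and 8.30 to 8.81 in wild type arrays. The largest Müller glia difference was that of Crym (0.79), while Glul (-0.08), Rlbp1 (-0.065), Dkk3 (-0.08) and Car14 (-0.13) lay lower. These markers thus did not move one way, and their count does not tell more cells from a response within cells. Of 12 markers of astrocytes and reactive glia 10 lay higher, with mean levels of 6.70 to 6.85 in mutant and 5.70 to 6.20 in wild type arrays. The largest of these differences was that of Cebpd (2.52), while S100b (-0.08) and Pdgfra (-0.12) lay lower. The list joins astrocyte genes with genes of reactive glia, so its count does not tell more cells from a response within cells. Of 16 markers of the pigment epithelium 15 lay higher, at 6.09 to 6.38 in mutant and 5.19 to 5.80 in wild type arrays. Of 15 lens markers 14 lay higher, at 10.27 to 11.26 in mutant and 9.26 to 11.04 in wild type arrays. The median lens differences by pair were 0.079, 0.187 and 1.882, so most of the lens difference lay in the third pair. No Müller glia or lens marker, 3 of the reactive glia markers and 3 of the pigment epithelium markers lay below the median of all values. In these 4 lists the lowest array was wild type replicate 3, as for Ngfr. Of 14 markers of microglia and macrophages 13 lay higher, at 5.03 to 5.11 in mutant and 4.76 to 4.90 in wild type arrays, and there the lowest array was wild type replicate 1. Of 15 markers of vessels and mural cells 10 lay higher and 5 lower, with a median difference of 0.08. Their part in the Ngfr difference was not tested.

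The 5 genes outside the group that followed Ngfr 1454903_at most closely over the 6 arrays were taken from 19569 probe sets above the median. They were Ncapd2 (Pearson r = 0.9995), a condensin subunit gene, Tulp3 (r = 0.9968), Tnfrsf1a (r = 0.9945), which encodes a tumour necrosis factor receptor, Syne4 (r = 0.9937) and AI429214 (r = 0.9913). Their differences were 0.31, 0.41, 0.39, 0.20 and 0.18, all higher in mutant retina. This is a description of 6 arrays that share their normalization and their pair structure, and the best of many probe sets are high by selection.

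The start region of Ngfr is shown as that of the member with the smallest p. RefSeq places it at chr11:95587649-95587948 in GRCm38.p6, on the minus strand, and it is given from 250 bases before to 50 bases after the start. Capitals mark GC boxes, searched as GGGCGG on both strands.
Ngfr: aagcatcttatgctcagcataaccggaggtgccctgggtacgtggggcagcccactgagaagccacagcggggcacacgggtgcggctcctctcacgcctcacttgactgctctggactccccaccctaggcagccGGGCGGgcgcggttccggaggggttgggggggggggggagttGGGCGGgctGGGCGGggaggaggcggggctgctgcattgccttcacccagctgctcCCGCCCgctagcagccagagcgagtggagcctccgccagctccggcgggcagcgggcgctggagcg
This window holds 4 GC boxes, 71.7% G and C and 23 CpG pairs, where the median of 32851 RefSeq windows is 52.7% and 7 pairs. It holds no TATA box (TATAAA), AP-1 motif (TGANTCA) or STAT motif (TTCNNNGAA). In all windows the shares with at least 1 match were 35.7% for the GC box, 13.6% for the TATA box, 7.81% for the AP-1 motif and 8.30% for the STAT motif, each searched on both strands.

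Fgf1, which encodes acidic FGF, lay lower at all 3 of its probe sets. Its probe set 1423136_at read 7.29, 7.26 and 6.85 on the mutant arrays, against 7.63, 7.44 and 7.12 on the wild type arrays. The groups overlapped, since replicate 3 was low in both. Each mutant array was below the wild type array of its own number, by 0.34, 0.18 and 0.27. The difference was -0.26 (SE 0.18), with an interval of -0.68 to 0.15 and an unadjusted p of 0.178 (limma), or 0.0184 with the replicate block and an adjusted p of 0.598. It was -0.12 without mutant replicate 3 and -0.40 without wild type replicate 3.

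At 1450869_at, a second Fgf1 probe set designed from the same cDNA accession in the annotation, the mutant arrays read 6.14, 6.35 and 6.68, against 6.61, 6.78 and 6.81 in wild type. Only mutant replicate 3 reached the wild type range. The difference was -0.35 (SE 0.15), with an interval of -0.70 to 0.01, an unadjusted p of 0.0551, and with the block an unadjusted p of 0.0125 and an adjusted p of 0.582 (limma). Replicate 3 was the lowest array of both genotypes at the first of these probe sets and the highest of both at the second. At 1450869_at the difference was -0.22 without mutant replicate 1 and -0.49 without mutant replicate 3. The shared accession means that these probe sets are not independent readings. The third probe set, 1441042_at, lay below the median of all values and differed by -0.08 (SE 0.14). Its pairs differed by 0.125, 0.034 and -0.405, and without wild type replicate 3 the difference was 0.064. The 2 Fgf1 probe sets 1423136_at and 1450869_at were the only ones of the 30 that were lower in all 3 pairs, against 13.1% of all probe sets. Of the 13 rod markers 12 lay lower, 9 of them in all 3 pairs, with a median difference of -0.19, and 13 of 14 ganglion cell markers lay lower as well. Their part in the Fgf1 differences was not tested.

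**Figure D2:**
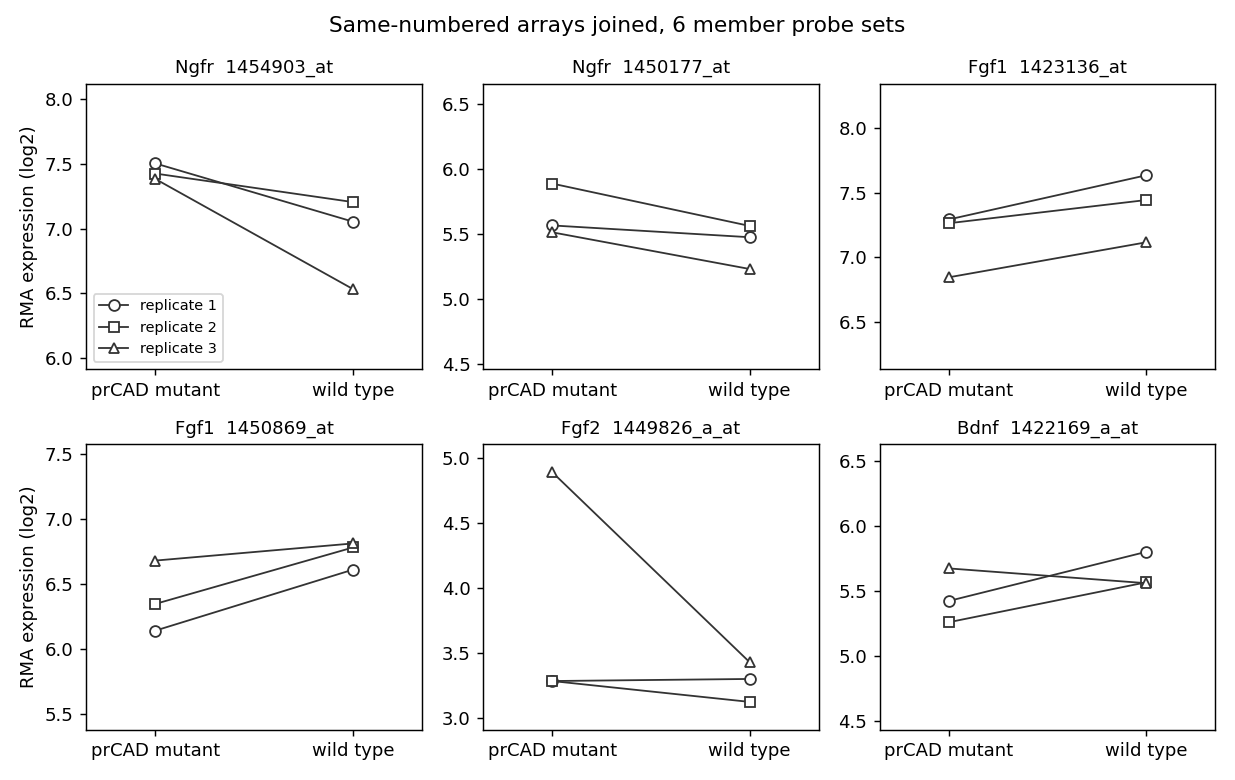
Log2 expression (vertical axis, the same span in every panel) of 6 probe sets, mutant at the left and wild type at the right, with a line joining the arrays of the same replicate number. The lines of Ngfr slope down to wild type and those of Fgf1 slope up in all 3 pairs, while Fgf2 differs most in the third pair and Bdnf runs the other way there.

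Fgf2, basic FGF, has 1 probe set on the array, 1449826_a_at. It read 3.28, 3.28 and 4.89 on the mutant arrays, against 3.30, 3.12 and 3.43 on the wild type arrays. Mutant replicate 3 stood 1.61 above the other mutant arrays, which lay within the wild type range. The difference of 0.54 (SE 0.42) had an interval of -0.45 to 1.52 and an adjusted p of 1.00 (limma). The largest difference among the 30 thus came from 1 array: without mutant replicate 3 it was -0.00059. Mutant replicates 1 and 2 carry the same deposited value, as a pair of arrays does in 4.78% of all probe sets and in 1 other here, that of Gdnf. All arrays but mutant replicate 3 were below the median of all values, where background limits a difference.

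The start region of Fgf2 is shown because the gene's rise after retinal injury is well known. RefSeq places it at chr3:37348403-37348702 in GRCm38.p6, on the plus strand, with the GC box in capitals.
Fgf2: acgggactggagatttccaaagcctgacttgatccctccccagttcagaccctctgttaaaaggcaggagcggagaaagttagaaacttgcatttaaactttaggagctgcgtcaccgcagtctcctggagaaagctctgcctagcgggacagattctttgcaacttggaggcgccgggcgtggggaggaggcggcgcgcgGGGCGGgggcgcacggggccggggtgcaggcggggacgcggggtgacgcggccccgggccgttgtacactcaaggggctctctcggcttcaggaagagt
It holds 1 GC box and none of the other motifs, with 62.7% G and C and 24 CpG pairs. RefSeq windows were at hand for 8 of the 10 genes, 15 windows in all. Of these, 5 held a GC box (in Bdnf, Fgf2, Ngfr and Ntrk2), 2 an AP-1 motif (Bdnf and Igf1), 1 a STAT motif (Bdnf) and 1 a TATA box (Gdnf).

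Fgfr1, which encodes a receptor for both of these ligands, lay slightly higher at all 3 of its probe sets. At 1425911_a_at the mutant arrays read 5.24, 5.37 and 5.44, against 5.37, 4.98 and 5.21 in wild type, a difference of 0.16 (SE 0.12). The groups overlapped there. The other differences were 0.04 (SE 0.12) at 1436551_at and 0.17 (SE 0.10) at 1424050_s_at, and the last was higher in all 3 pairs, by 0.32, 0.03 and 0.14. The intervals of the 3 probe sets ended between 0.31 and 0.46 on the upper side.

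Bdnf lay lower at both of its probe sets. At 1422169_a_at the mutant arrays read 5.42, 5.26 and 5.67, against 5.80, 5.57 and 5.56 in wild type, a difference of -0.19 (SE 0.14). Mutant replicates 1 and 2 were below all wild type arrays and mutant replicate 3 was among them. At 1422168_a_at, below the median of all values, the difference was -0.16 (SE 0.15), with mutant replicate 3 again the highest mutant array. Both are designed from 1 accession, as are probe sets of Ngfr (1450177_at and 1421241_at), Ntrk2 (1420838_at and 1420837_at) and Gfra1 (1450440_at and 1421973_at), so these pairs are not independent readings. Without mutant replicate 3 the differences were -0.30 and -0.31. At the other end they were -0.095 at 1422169_a_at without mutant replicate 2 and -0.082 at 1422168_a_at without wild type replicate 1. Of 14 markers of ganglion cells, a cell type that makes BDNF and TrkB, 13 lay lower, with mean levels of 6.62 to 6.89 in mutant and 6.86 to 7.16 in wild type arrays. Their part in these differences was not tested.

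Ntrk2 has 8 probe sets, 4 of them above the median of all values. The gene encodes TrkB as a full-length kinase and as truncated forms without the kinase, and which form each probe set reads was not analysed here. At 1420838_at the mutant arrays read 8.01, 8.14 and 7.89, against 8.06, 8.24 and 7.54 in wild type, a difference of 0.07 (SE 0.19). The groups overlapped, and replicate 3 was the lowest of both genotypes. At 1437560_at the means differed by -0.0002 (SE 0.15), and here replicate 3 was the highest of both.

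The remaining Ntrk2 probe sets showed no common direction. At 1435196_at the mutant arrays read 5.78, 5.76 and 5.44, against 5.52, 5.68 and 5.29 in wild type. This was higher in all 3 pairs, by 0.26, 0.09 and 0.16, with a difference of 0.17 (SE 0.14). At 1458622_at the difference was -0.06 (SE 0.10). The 4 probe sets below the median differed by -0.16 to 0.03. The widest interval of the gene, -1.05 to 0.72, was that of 1435305_at, where wild type replicate 3 read 4.54 and the other wild type arrays 3.18 and 3.17.

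Gdnf was measured by 1 probe set below the median of all values. It read 3.78, 3.64 and 3.68 on the mutant arrays, against 3.77, 3.73 and 3.73 on the wild type arrays. The difference was -0.04 (SE 0.09), and background limits what it can show.

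Its co-receptor gene Gfra1 did not move one way. At 1439015_at, the only probe set above the median, the mutant arrays read 5.60, 5.77 and 5.42, against 5.64, 5.61 and 5.20 in wild type, a difference of 0.12 (SE 0.15). At 1450440_at they read 4.19, 4.25 and 4.72, against 4.60, 4.67 and 4.66, a difference of -0.26 (SE 0.15). Here mutant replicates 1 and 2 lay below all wild type arrays and mutant replicate 3 above them. Without mutant replicate 3 the difference was -0.42, and without mutant replicate 1 it was -0.16. The third probe set differed by -0.05 (SE 0.15).

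Igf1 gave some of the narrowest intervals. At 1437401_at the mutant arrays read 7.20, 7.07 and 7.03, against 7.00, 6.96 and 7.12 in wild type, a difference of 0.07 (SE 0.10) with an interval of -0.15 to 0.30. At 1434413_at they read 7.10, 6.96 and 7.08, against 7.02, 7.05 and 6.75, a difference of 0.11 (SE 0.11) with an interval of -0.16 to 0.37. The groups overlapped at both. At 1452014_a_at the difference was -0.11 (SE 0.12).

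At the fourth Igf1 probe set, 1419519_at, the mutant arrays spread widely, with 4.23, 4.67 and 5.47, against 4.91, 4.93 and 5.41 in wild type. Mutant replicates 1 and 2 were below all wild type arrays and mutant replicate 3 above them. The difference was -0.29 (SE 0.31), and with single arrays left out it ranged between -0.63, without mutant replicate 3, and -0.013, without mutant replicate 1. Igfbp3 lay below the median of all values on every array at both of its probe sets, with differences of 0.03 (SE 0.09) and 0.13 (SE 0.15).

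Mutant replicate 3 thus decided several of these values. Without it, 7 of the 30 probe sets had an unadjusted p under 0.05 (limma), against 6.56% of all probe sets, and 0 passed over all probe sets. Lower were both Bdnf probe sets, Fgf1 1450869_at, Gfra1 1450440_at and Igf1 1419519_at. Higher were Ngfr 1454903_at and Igfbp3 1423062_at. Without mutant replicate 1 or mutant replicate 2 the count was 0, against 2.32% and 2.04% of all probe sets. Leaving out both replicate 3 arrays, an alternative added once their deviation had been seen, again gave 7, against 7.68% of all probe sets, and 0 passed over all. No array had a reason in the labels to be left out.

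**Figure D3:**
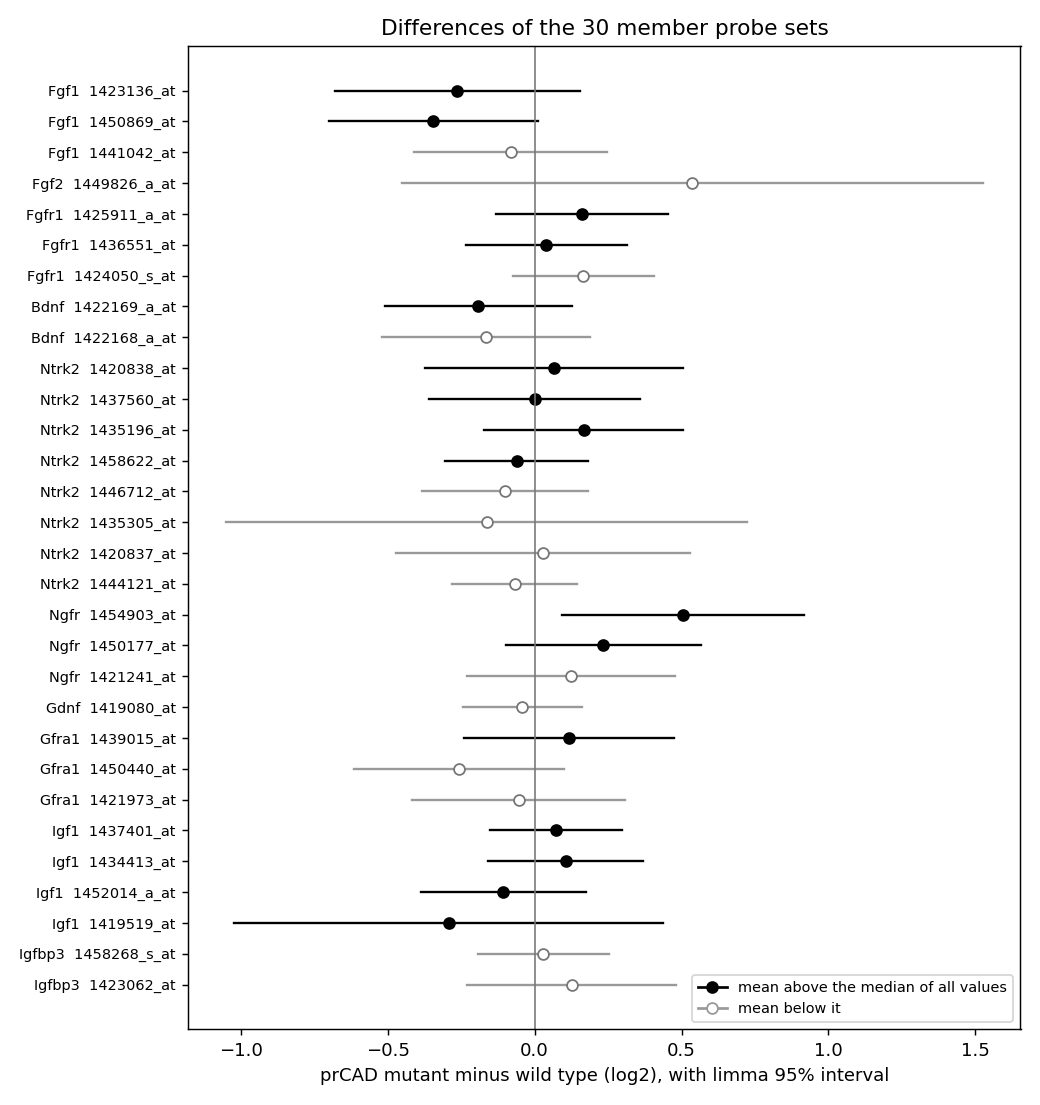
Difference between mutant and wild type retina (horizontal axis, log2) of each of the 30 probe sets with its limma 95% interval, filled where the mean lies above the median of all values and open where it lies below. The interval of Ngfr 1454903_at, 0.09 to 0.92, is the 1 that does not hold 0, and that of Fgf2, -0.45 to 1.52, is among the widest.

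The size of change that the arrays allow was read from the intervals. At 27 of the 30 probe sets the 95% interval, taken for each probe set by itself, lay within a 2-fold change in either direction, and at 17 of 30 within 1.41-fold. Among the 16 probe sets above the median of all values the counts were 15 and 8. Below the median background limits a difference, so a narrow interval there does not bound the change of the transcript. The exceptions to the 2-fold limit were Fgf2, Ntrk2 1435305_at and Igf1 1419519_at. The median SE was 0.15 for the 30 probe sets and 0.12 for all.

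The wider pathways of these genes were taken from lists, each gene at its brightest probe set, and 0 genes of the 6 lists passed over all probe sets. Over all 18193 genes, 3.42% had an unadjusted p under 0.05 and the median difference was 0.02, with 10621 genes higher and 7572 lower in mutant retina. Of 39 other FGF ligands, receptors and feedback genes 25 lay higher and 14 lower, with a median of 0.04, and 0 had an unadjusted p under 0.05 (limma). Those with the smallest p were Fgf12, an intracellular FGF homologue (-0.30, SE 0.16), and the feedback inhibitor Spry1 (0.20, SE 0.12). They were followed by the receptor adaptor Frs3 (0.13, SE 0.08) and Etv4, an ETS factor induced by FGF signals (0.17, SE 0.13). Frs3 read 7.14, 7.23 and 7.18 on mutant arrays, against 7.11, 7.04 and 6.99 on wild type arrays, without overlap.

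Of 17 neurotrophin pathway genes 11 lay higher and 6 lower, with a median of 0.04, and 0 had an unadjusted p under 0.05. Ntrk3, the kinase receptor of neurotrophin 3, read 5.51, 5.50 and 5.37 on mutant arrays, against 5.62, 5.55 and 6.20 on wild type arrays. Its groups did not overlap, and wild type replicate 3 stood well above the rest (difference -0.33, SE 0.18). The adaptor Shc1 differed by 0.16 (SE 0.11), the sortilin-family receptor Sorcs2 by 0.11 (SE 0.11) and Adcyap1, which encodes the neuropeptide PACAP, by 0.17 (SE 0.16).

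Of 9 GDNF family genes 5 lay higher and 4 lower, with a median of 0.04, and 0 had an unadjusted p under 0.05. The neurturin co-receptor Gfra2 differed by -0.26 (SE 0.15) and Gfra4 by 0.16 (SE 0.13). The ligand gene Pspn differed by 0.12 (SE 0.14), and Artn by -0.08 (SE 0.10).

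Of 21 IGF and insulin pathway genes 14 lay higher and 7 lower, with a median of 0.03. The 1 gene with an unadjusted p under 0.05 was Igfbp1, a binding protein gene. It read 3.24, 3.26 and 3.32 on mutant arrays, against 3.00, 2.97 and 3.10 on wild type arrays, a difference of 0.25 (SE 0.09, adjusted p = 1.00, limma). Its groups did not overlap, but all 6 arrays lay well below the median of all values. Pappa and Pappa2, which encode proteases that cleave IGF binding proteins, differed by 0.23 (SE 0.18) and 0.34 (SE 0.26), and Igfbp6 by 0.14 (SE 0.13).

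**Figure D4:**
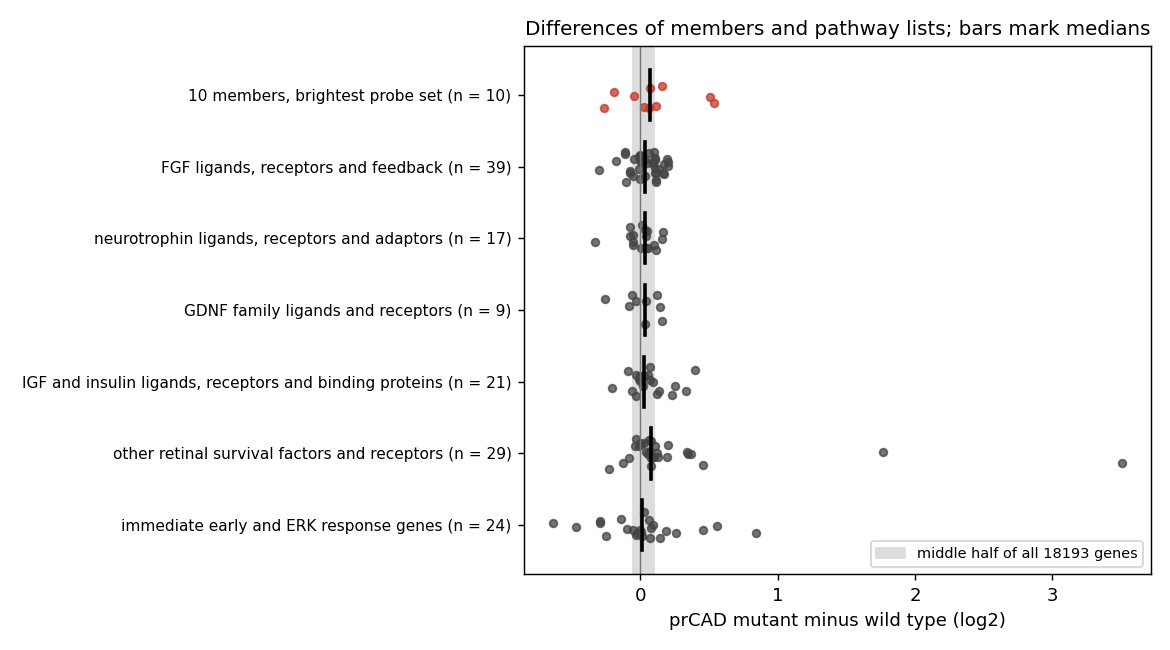
Difference between mutant and wild type retina (horizontal axis, log2) of each gene at its brightest probe set, for the 10 members in red and for 6 pathway lists in grey, with bars at the medians and a band between the lower and upper quartile of all 18193 genes. All medians lie inside the band, and the points far to the right are Osmr at 1.77 and Edn2 at 3.51.

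Other survival factors and receptors of the retina showed larger single differences than the members. Their list, like the others, was chosen with earlier results of these data known, so this contrast is a description and not a test. Of 29 genes 22 lay higher and 7 lower, with a median of 0.08, and 5 had an unadjusted p under 0.05, all higher. Osmr, the oncostatin M receptor, read 6.31, 5.79 and 6.03 on mutant arrays, against 4.47, 4.46 and 3.88 on wild type arrays (adjusted p = 0.160, limma). Edn2, endothelin 2, read 9.76, 8.72 and 8.18, against 5.13, 6.23 and 4.78 (adjusted p = 0.297, limma). Neither overlapped between genotypes. Il6st, the signalling subunit that both OSM and LIF receptors use, differed by 0.35 (SE 0.10), Met, the receptor of hepatocyte growth factor, by 0.45 (SE 0.18), and the cytokine gene Lif by 0.37 (SE 0.15).

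Immediate early genes, which respond to kinase receptors among many other signals, gave 3 of 24 with an unadjusted p under 0.05, all higher. The list had 13 genes higher and 11 lower and a median of 0.01. Junb read 5.89, 6.11 and 5.78 on mutant arrays, against 5.15, 5.32 and 4.75 on wild type arrays, a difference of 0.85 (SE 0.17, adjusted p = 0.784, limma). Its groups did not overlap. Atf3, a stress-induced factor, differed by 0.56 (SE 0.13), Jun by 0.46 (SE 0.17) and Klf4 by 0.26 (SE 0.11). Of the 11 genes that lay lower, Egr1 differed most, by -0.64 (SE 0.50).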

How the data were processed

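RMA is named, without a version, in the submitters' processing notes. The log2 scale of the deposited values was read from their range. RMA equalizes the arrays' distributions, so differences in total signal are removed. The table held 45101 probe sets on 6 arrays, and 64 manufacturer controls were left out. The number of arrays limits the precision.

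Of the rest, 34945 probe sets had 1 gene symbol, 932 several and 9160 none. limma 3.58.1 (lmFit and eBayes, in R 4.3.3) tested mutant minus wild type over all 45037 probe sets on genotype alone, with Benjamini-Hochberg adjustment at 0.05. It was also run on simulated data with independent arrays. Those data hold neither pairs nor a replicate 3 that stands apart, so that run does not cover these features. Nothing in the labels says whether arrays share a batch. Deviations from the group means of same-numbered arrays correlated at 0.477, 0.469 and 0.563 over probe sets, so the numbers were taken to pair the arrays. This reading is from the data. Within a genotype these deviations cancel out, so replicate 3 arrays that stand apart can raise every correlation. The values thus cannot show by themselves that replicates 1 or 2 are paired, and the pair and block results rest on that assumption. Every SE is from the fit without the block.

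Members and lists were chosen with earlier results of these data known. Named were all members, and of each pathway list the 4 genes with the smallest p. Lif was named beyond this rule, after its values were seen, as 1 of the 5 genes in its list with an unadjusted p under 0.05. Egr1 and the markers Crym, Glul, Rlbp1, Dkk3, Car14, Cebpd, S100b and Pdgfra were also named after their values were seen. Of the list genes, 10 pathway and 6 marker genes had no probe set with their symbol alone. Promoter windows are RefSeq's (GRCm38.p6). Alternatives were the replicate block, each array left out, dim filters, 2 scalings, variance models, array weights, the mean of a gene's probe sets, and probe sets prone to cross-hybridisation left out. Figures used matplotlib 3.10.9.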

Additional observations from a re-analysis of the deposited data

How the results depend on the processing

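Over 415 recomputed differences of the 30 probe sets, 0 passed over all probe sets, the smallest adjusted p being 0.328 (limma; Gfra1 1450440_at without both replicate 3 arrays), and 17 of the 30 kept 1 sign. The replicate block changed no call of a member. Over all probe sets 5 passed, against 15 with the block, 25 with array weights, 3 without cross-hybridising probe sets, 16 without both replicate 3 arrays and 2 to 9 without single arrays. Members at an unadjusted p under 0.05 were 1 (3.02% of all probe sets), against 4 with the block (7.60%), 6 with array weights (9.53%), 2 with median centring (2.78%), 7 without both replicate 3 arrays (7.68%) and 0 to 7 without single arrays (2.04% to 6.56%). Member probe sets without overlap in either direction were 1 (7.80% of all), against 16 without both replicate 3 arrays (37.3% of all probe sets then) and 2 to 11 without single arrays (14.2% to 24.6%). Of 96 pathway list counts 95 were 0, and with array weights 1 gene of the other survival factors passed. The cause of these shifts was not tested. Separation is easier to reach when fewer arrays are compared, and with arrays left out it was also more frequent over all probe sets, as the shares show.

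Signs turned as follows. With array weights: Fgfr1 1436551_at -0.046, Igf1 1434413_at -0.012, Ntrk2 1420837_at -0.23, 1420838_at -0.0041, 1435305_at 0.18 and 1446712_at 0.0055. With a further quantile normalization: Ntrk2 1437560_at 0.012. Without both replicate 3 arrays: Fgf1 1441042_at 0.079, Igf1 1434413_at -0.0050, Ntrk2 1420837_at -0.21, 1420838_at -0.076 and 1435305_at 0.17. Without single arrays the ranges were -0.00059 to 0.81 for Fgf2, -0.16 to 0.064 for Fgf1 1441042_at, -0.054 to 0.11 for Fgfr1 1436551_at, -0.22 to 0.065 for Gfra1 1421973_at, -0.023 to 0.20 for Gfra1 1439015_at and -0.019 to 0.082 for Igfbp3 1458268_s_at. For Ntrk2 they were -0.22 to 0.23 (1420837_at), -0.14 to 0.22 (1420838_at), -0.39 to 0.29 (1435305_at), -0.14 to 0.094 (1437560_at) and -0.12 to 0.0065 (1458622_at).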
